A study of Mus musculus with 66 samples.

Results

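Pkp2, Tox, Aass, Cth, Dctn6 and Fam174a are 6 genes of 13196 measured in mouse medial prefrontal cortex that were picked because ethanol and saline arrays differed in the inbred progenitor strains DBA/2J or C57BL/6J (spelled C57BL6/J in the labels). They are less familiar in this setting than the immediate early genes that head the same rankings. All probe sets annotated to the 6 symbols were taken, 13 in all, of which 12 passed a filter on dim signal, and each gene was represented by its brightest probe set. The values that chose them are the progenitor differences, so those are given below as a description with no test. The 27 BXD strain pairs took no part in the choice and carry the test of whether the differences recurred.

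Each array held RNA pooled from 4 to 5 male mice aged 10 to 12 weeks. Ethanol at 1.8 g/kg or saline was injected intraperitoneally. Restraint for 15 minutes and a light-dark test of 10 minutes followed, and tissue was taken 4 hours after dosing. There were 3 ethanol and 3 saline arrays of DBA/2J, and 3 ethanol and 3 saline arrays of C57BL/6J. The BXD panel, recombinant inbred strains bred from a cross of those progenitors, had 27 strains with 1 ethanol and 1 saline array each. All groups, saline included, went through restraint and the light-dark test, so no array shows an unhandled animal. Values are log2 expression levels, in which a difference of 1 is a doubling.

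The 6 genes have unrelated roles. Pkp2 encodes plakophilin 2, an armadillo-repeat protein that ties desmosomal cadherins to intermediate filaments and is best known from the heart. Tox is a nuclear protein with a high-mobility-group box, known mainly from developing and exhausted T cells. Aass is the mitochondrial enzyme that opens the saccharopine route of lysine breakdown, and Cth, cystathionine gamma-lyase, makes cysteine in the last step of transsulfuration and can also release hydrogen sulfide. Dctn6 is a pointed-end subunit of dynactin, the complex that links cytoplasmic dynein to its cargo, and Fam174a is a predicted membrane protein whose function is little described.

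Promoter sequence was available in the RefSeq table (build GRCm38.p6) for 2 of the 6 genes, Aass and Fam174a, and both had higher ethanol than saline levels in DBA/2J. The 250 bases before each start are shown to display the letters that factors of the stimulus response are known to bind. Capitals mark the cyclic AMP response element, spelled TGACGTCA in full, or its shorter core TGACG. The Aass stretch is chr6:23132987-23133236 on the minus strand and the Fam174a stretch is chr1:95313378-95313627 on the plus strand.
Aass: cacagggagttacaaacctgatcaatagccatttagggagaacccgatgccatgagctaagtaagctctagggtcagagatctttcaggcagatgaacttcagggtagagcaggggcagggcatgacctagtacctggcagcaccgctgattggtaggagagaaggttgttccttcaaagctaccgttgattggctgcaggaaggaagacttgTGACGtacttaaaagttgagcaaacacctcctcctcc
Fam174a: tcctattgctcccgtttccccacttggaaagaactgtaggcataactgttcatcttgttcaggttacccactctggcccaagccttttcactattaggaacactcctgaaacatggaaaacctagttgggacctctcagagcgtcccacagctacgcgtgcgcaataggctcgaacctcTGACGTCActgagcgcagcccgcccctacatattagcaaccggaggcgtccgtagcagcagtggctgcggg

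The full element stood 71 bases before the Fam174a start, and 1.55% of 32851 promoters of that length held it on either strand. The core alone, which the full element contains, stood 37 bases before the Aass start and occurs in 17.8% of promoters. The AP-1 letters TGANTCA (6.75% of promoters), the amino acid response core TGATGNAA (3.45%) and the E-box CACGTG (6.02%) were searched on both strands and had no match in either stretch. A match of letters is a description only.

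The arrays had medians between 5.67 and 5.77 and standard deviations (SD) between 2.06 and 2.17. Of the 12 progenitor arrays, saline DBA/2J replicate 1 had the lowest SD (2.07) and the highest median (5.77). The markers of excitatory neurons had a median level at percentile 93.6 of all genes, 5 of 6 measured. Striatal markers were at percentile 56.2 (6 of 8 measured), and only 3 of 8 choroid plexus markers and 1 of 6 blood markers passed the filter on dim signal. In such tissue RNA, a lower level from fewer cells of a type and from less RNA per cell cannot be told apart.

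In the progenitors, Pkp2 had higher levels after ethanol in both strains. In DBA/2J its levels were 6.31, 6.20 and 6.51 after ethanol, against 5.98, 6.0 and 5.68 after saline. In C57BL/6J they were 6.81, 6.73 and 6.64 after ethanol, against 6.21, 6.21 and 6.14 after saline. No ethanol array overlapped a saline array within a strain. The difference, ethanol minus saline, was 0.45 in DBA/2J (SE 0.10) and 0.54 in C57BL/6J (SE 0.10), and 0.50 over both (SE 0.07), a ratio of 1.41. Over all genes, 9.66% had every DBA/2J ethanol array above every saline array and 3.78% did so in C57BL/6J; Pkp2 was chosen from these contrasts, so nothing is read from its place among them.

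Tox went the other way in both strains. Its DBA/2J levels were 8.42, 8.29 and 8.24 after ethanol, against 8.77, 8.83 and 8.66 after saline. Its C57BL/6J levels were 7.78, 7.85 and 7.65 after ethanol, against 8.33, 8.20 and 8.06 after saline. All ethanol arrays lay below the saline arrays of their strain, as they did for 8.22% of genes in DBA/2J and 6.07% in C57BL/6J. The difference was -0.44 in each strain (SE 0.09 in each), a ratio of 0.74.

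Aass had the smallest difference of the 3 genes shared by both strains. Its DBA/2J levels were 5.90, 5.75 and 5.85 after ethanol, against 5.32, 5.5 and 5.4 after saline. Its C57BL/6J levels were 6.01, 5.91 and 5.85 after ethanol, against 5.67, 5.57 and 5.68 after saline. The ethanol arrays were again clear of the saline arrays in each strain, and Aass is dim, with a mean of 5.73 against a filter at 5.10. The difference was 0.42 in DBA/2J (SE 0.08), 0.29 in C57BL/6J (SE 0.08) and 0.36 over both (SE 0.06). By p-value over both strains, Pkp2, Tox and Aass held ranks 4, 5 and 6, behind Npas4, Fos and Egr2. Just outside stood the predicted gene Gm10421 at rank 7, with a difference of 0.29 (SE 0.05).

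Cth, Dctn6 and Fam174a differed between treatments in DBA/2J and hardly in C57BL/6J. Cth levels in DBA/2J were 5.77, 5.96 and 5.75 after ethanol, against 4.75, 4.90 and 5.12 after saline. Cth levels in C57BL/6J were 5.82, 5.36 and 5.43 after ethanol, against 5.63, 5.13 and 5.57 after saline. The DBA/2J groups stood apart and the C57BL/6J groups overlapped. The Cth difference was 0.91 in DBA/2J (SE 0.14), a ratio of 1.87, and 0.09 in C57BL/6J (SE 0.14). The saline DBA/2J mean of 4.92 lay below the level used as the filter, so its distance from the ethanol arrays has no exact size.

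Dctn6, the brightest of the 6 genes, showed the same layout. Its DBA/2J levels were 10.33, 10.28 and 10.49 after ethanol, against 9.23, 9.82 and 9.42 after saline. Its C57BL/6J levels were 10.75, 10.26 and 10.45 after ethanol, against 10.58, 10.51 and 10.39 after saline. The saline DBA/2J arrays were the low ones, and the other 9 arrays of the progenitors lay between 10.26 and 10.75. The difference was 0.87 in DBA/2J (SE 0.14) and -0.01 in C57BL/6J (SE 0.14).

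Fam174a levels in DBA/2J were 9.45, 9.38 and 9.52 after ethanol, against 8.82, 9.05 and 8.90 after saline. In C57BL/6J they were 9.74, 9.57 and 9.59 after ethanol, against 9.55, 9.57 and 9.75 after saline. Here too the saline DBA/2J arrays were low and the C57BL/6J groups overlapped. The difference was 0.53 in DBA/2J (SE 0.09) and 0.01 in C57BL/6J (SE 0.09). The DBA/2J difference exceeded the C57BL/6J one by 0.81 for Cth (SE 0.20), 0.88 for Dctn6 (SE 0.20) and 0.52 for Fam174a (SE 0.12). The excess was 0.14 for Aass (SE 0.11), 0.00 for Tox (SE 0.13) and -0.09 for Pkp2 (SE 0.14). By p-value in DBA/2J, Cth, Dctn6 and Fam174a held ranks 2, 3 and 4 behind Npas4, with Gm10421 just outside at rank 5 (0.40, SE 0.07).

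Markers of other cells differed between treatments in these arrays as well. No marker passed in limma, but only 0 of 13196 genes passed in DBA/2J and 1 in C57BL/6J. Nothing is read from that, and the values are a description. Of 10 meningeal and fibroblast markers, 9 were lower after ethanol in DBA/2J (median -0.07) and 9 were higher in C57BL/6J (median 0.16). Their mean level per array ran from 7.18 to 7.32 in ethanol DBA/2J, against 7.25 to 7.46 in saline DBA/2J, and from 7.29 to 7.51 in ethanol C57BL/6J, against 7.08 to 7.35 in saline C57BL/6J. Of 8 astrocyte markers, 7 were lower after ethanol in DBA/2J (median -0.08) and 6 were higher in C57BL/6J (median 0.02). Of 8 microglia markers, 6 were higher after ethanol in DBA/2J (median 0.04) and 7 were lower in C57BL/6J (median -0.08). Over all 13196 genes, 6476 were lower after ethanol in DBA/2J and 7745 in C57BL/6J. The oligodendrocyte markers were lower in C57BL/6J after ethanol, 7 of 7 (median -0.18), while in DBA/2J 4 were higher and 3 lower (median 0.08). The part of these cells in the differences of the 6 genes was not tested.

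**Figure D1:**
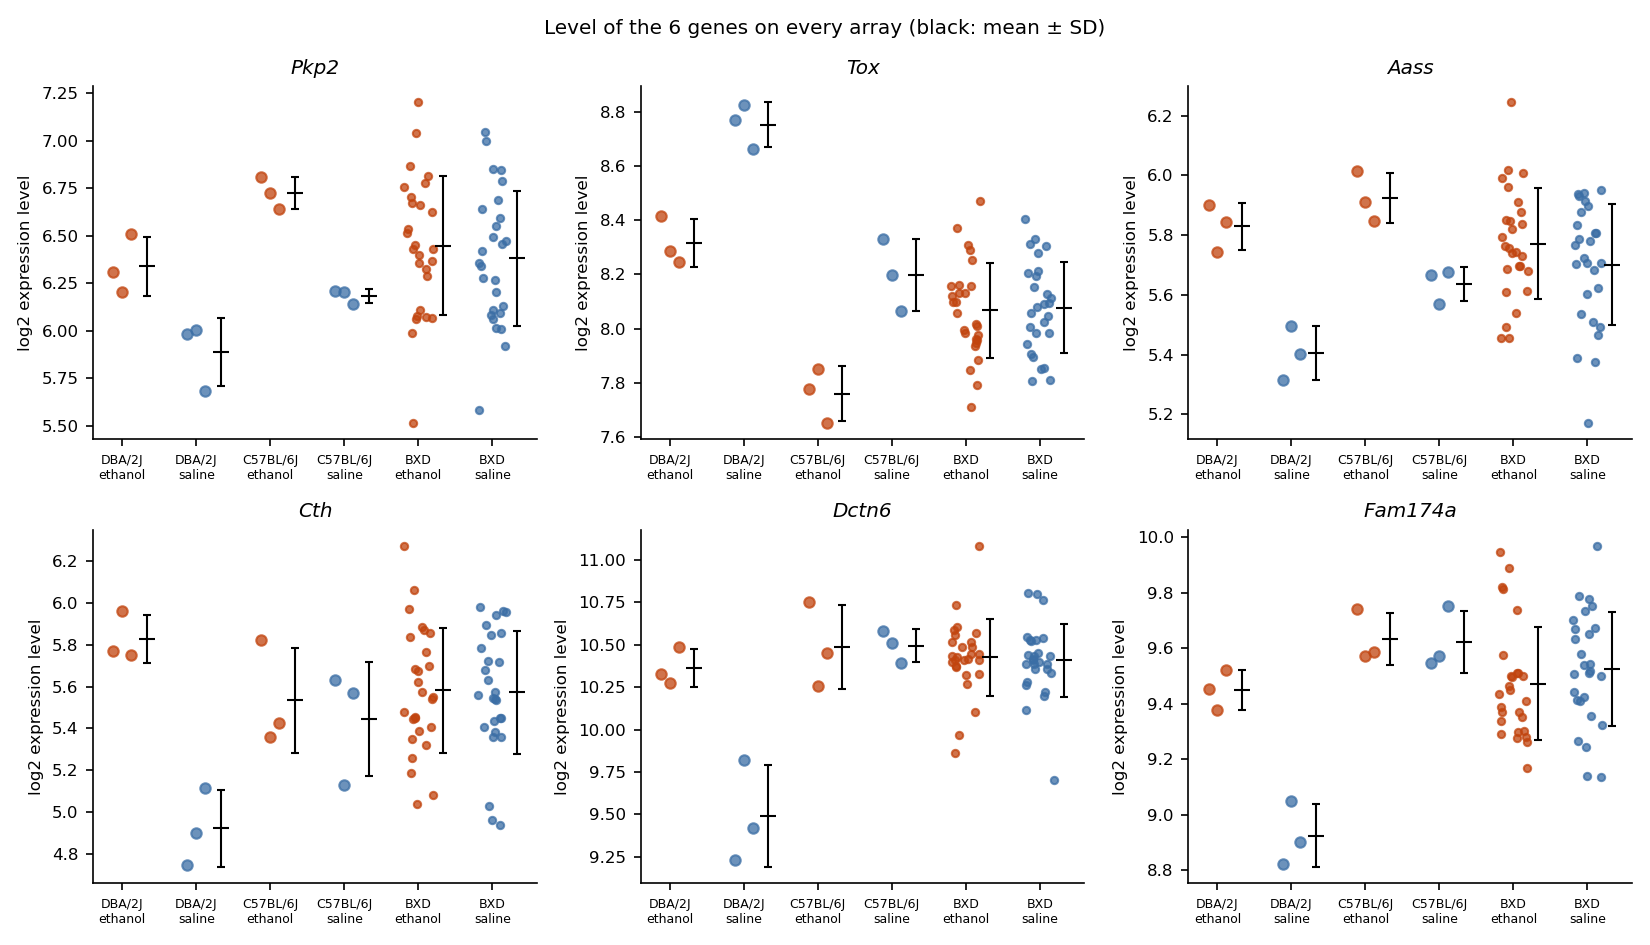
Log2 expression level of the 6 genes on all 66 arrays, with DBA/2J, C57BL/6J and BXD groups side by side, ethanol in orange and saline in blue, 1 point per array and black bars for the mean ± SD. The saline DBA/2J points of Cth, Dctn6 and Fam174a stand low, those of Tox stand high, and the BXD ethanol and saline points overlap widely in each panel.

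The saline DBA/2J arrays were set against the 27 saline BXD arrays, which carry DBA/2J and C57BL/6J alleles in other combinations. For Fam174a all 3 saline DBA/2J arrays lay below the lowest saline BXD array (9.14), which 0.53% of genes did. For Cth and Dctn6, 2 of 3 lay below the lowest BXD arrays (4.94 and 9.70). For Tox all 3 lay above the highest BXD array (8.40), which 0.69% of genes did. Among ethanol DBA/2J arrays, none of the 3 lay outside the range of the 27 ethanol BXD arrays for any of the 6 genes. Over all genes the share was counted only for all 3 arrays outside, 0.22% above and 0.0379% below. Of the C57BL/6J arrays only 1 ethanol array of Tox, at 7.65, left the BXD range of its treatment, whose lowest value was 7.71. The shares of genes with 1 or 2 arrays outside were not counted, so nothing is read from those counts. Without saline DBA/2J replicate 1, the array with the lowest SD, the DBA/2J difference was 0.82 for Cth, 0.74 for Dctn6 and 0.48 for Fam174a. These saline arrays took part in choosing the genes, so their place is a description. Whether array quality had a part in the low saline DBA/2J values was not tested.

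The BXD panel asked whether the progenitor differences recurred. None of the 6 genes passed at an adjusted p below 0.05 in limma's paired test over 27 strains, where 1 of 13196 genes (0.00758%) did. None had an unadjusted p below 0.05 either, against 4.93% of all genes. The gene that passed was Npas4, a transcription factor that neurons induce with activity, at 0.84 (SE 0.08, adjusted p = 1.7e-07 in limma), higher in 24 of 27 strains. For scale, the immediate early genes Fos and Egr2 averaged 0.46 (SE 0.10) and 0.41 (SE 0.10) and were higher in 21 and 20 strains, without passing (adjusted p = 0.115 and 0.211, limma).

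Pkp2 averaged 6.45 ± 0.37 after ethanol and 6.38 ± 0.36 after saline (SD, n = 27). Its paired difference was 0.07 (SE 0.07, 95% interval -0.07 to 0.20, adjusted p = 0.957 in limma), and 15 of 27 strains were higher. Strains scattered widely, with differences from -0.60 in BXD01 to 1.03 in BXD09 (SD 0.38). In BXD09 Pkp2 read 7.04 after ethanol and 6.02 after saline, while in BXD01 it read 6.4 after ethanol and 7.0 after saline. Only 3 strains reached the progenitors' joint difference of 0.50, and 12 had lower Pkp2 after ethanol.

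Tox was the tightest. Its mean was 8.07 ± 0.18 after ethanol and 8.08 ± 0.17 after saline (SD, n = 27). The paired difference was -0.01 (SE 0.03, 95% interval -0.07 to 0.05, adjusted p = 0.987 in limma). The lowest strain, BXD42, had -0.35 and the highest, BXD22, had 0.26, so none of the 27 strains reached the progenitors' -0.44, and 14 of 27 were higher after ethanol.

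Aass averaged 5.77 ± 0.19 after ethanol and 5.7 ± 0.20 after saline (SD, n = 27), and was higher after ethanol in 19 of 27 strains. At least 19 strains moved one way for 4.86% of all genes. The paired difference was 0.07 (SE 0.04, 95% interval -0.02 to 0.16, adjusted p = 0.957 in limma). A permutation test that flipped the sign of whole strains gave p = 0.139 (two-sided). Strain differences ran from -0.42 in BXD27 to 0.84 in BXD20, whose saline array (5.17) was the lowest of the panel.

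Cth averaged 5.58 ± 0.30 after ethanol and 5.57 ± 0.29 after saline (SD, n = 27). Its difference was 0.01 (SE 0.04, 95% interval -0.08 to 0.09, adjusted p = 0.992 in limma), and 12 of 27 strains were higher. The largest strain difference, 0.43 in BXD19, fell short of the 0.91 seen in DBA/2J.

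Dctn6 averaged 10.43 ± 0.23 after ethanol and 10.41 ± 0.22 after saline (SD, n = 27). Its difference was 0.02 (SE 0.05, 95% interval -0.08 to 0.12, adjusted p = 0.975 in limma), with 15 of 27 strains higher. BXD28 came nearest to DBA/2J, with 11.08 after ethanol and 10.33 after saline, a difference of 0.75, and no strain reached 0.87.

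Fam174a averaged 9.47 ± 0.20 after ethanol and 9.53 ± 0.20 after saline (SD, n = 27), the opposite order from DBA/2J. Its difference was -0.05 (SE 0.05, 95% interval -0.15 to 0.04, adjusted p = 0.957 in limma), and 12 of 27 strains were higher. No strain reached the DBA/2J difference of 0.53, while the lowest, BXD18, had -0.58. For every one of the 6 genes, the 95% interval of the BXD mean ended short of the progenitor value that had chosen the gene. A progenitor value picked for its size has no matching test of the gap.

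**Figure D2:**
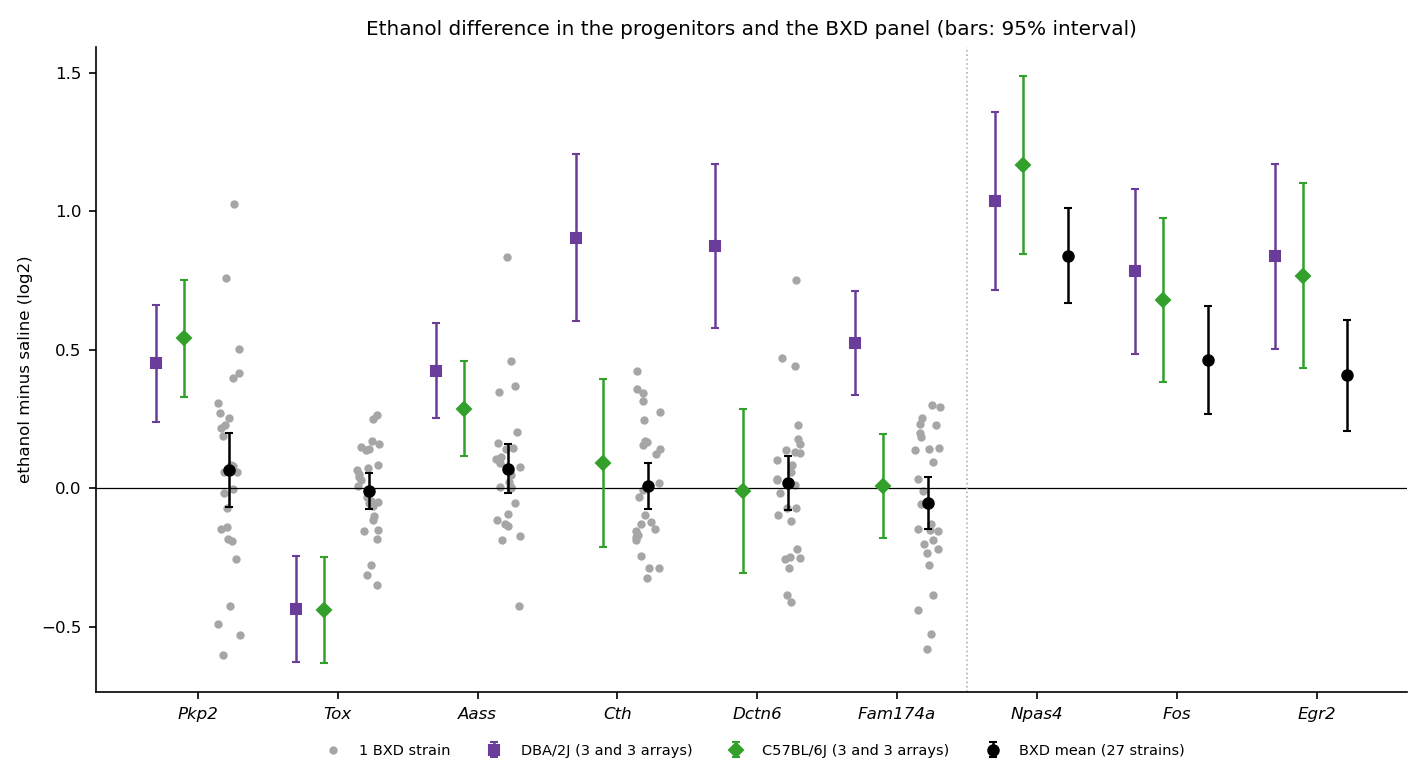
Ethanol minus saline (log2, vertical axis) for the 6 genes and, right of the dotted line, for Npas4, Fos and Egr2, with DBA/2J as squares, C57BL/6J as diamonds, BXD means as black circles, 95% intervals as bars and the 27 BXD strains of the 6 genes as grey points. The black circles of the 6 genes sit between -0.05 and 0.07, while those of Npas4, Fos and Egr2 sit between 0.41 and 0.84.

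Several genes have more than 1 probe set on the array, which reads another stretch of the transcript. The other DBA/2J and C57BL/6J values come from the contrasts that chose the genes and are given as descriptions. For Pkp2 the chosen probe set 1449799_s_at had 0.50 over both strains, against 0.13 at 1429183_at and -0.12 at 1460511_at. Its remaining probe set, 1420259_at, had a mean level of 3.81, failed the filter and gave -0.02. Pkp2 by 1429183_at read 6.42, 6.21 and 6.22 in DBA/2J after ethanol, against 6.25, 6.22 and 6.13 after saline, and these overlapped.

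Tox behaved alike at its 3 probe sets in C57BL/6J only by direction: -0.44 at 1425483_at, -0.25 at 1425484_at and -0.37 at 1442039_at. In DBA/2J the same 3 gave -0.44, 0.06 and 0.01, so in DBA/2J a clearly lower ethanol level was seen at 1 of 3. Dctn6 had 0.87 in DBA/2J at 1416499_a_at and 0.00 at 1448368_at. By 1448368_at its DBA/2J levels were 9.27, 9.16 and 9.17 after ethanol, against 9.14, 9.19 and 9.26 after saline, and the ranges overlapped. Fam174a was the gene whose probe sets matched: 0.53 at 1419170_at and 0.47 at 1419171_at in DBA/2J, and 0.01 at each in C57BL/6J. By 1419171_at its DBA/2J levels were 5.32, 5.42 and 5.59 after ethanol, against 4.77, 4.97 and 5.18 after saline. That probe set is dim, and its saline DBA/2J mean of 4.97 lay below the filter level, so its difference has no exact size. Aass and Cth had 1 probe set each. Across the BXD strains all 13 probe sets had mean differences between -0.06 and 0.07.

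Over the 27 strain differences, the correlation with the chosen probe set was 0.75 for Pkp2 1429183_at, 0.44 for Pkp2 1420259_at, 0.04 for Pkp2 1460511_at, 0.70 for Dctn6 1448368_at and 0.34 for Fam174a 1419171_at. It was -0.07 and 0.18 for the other Tox probe sets. Probe sets of a gene share each array, so these correlations are descriptions.

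**Figure D3:**
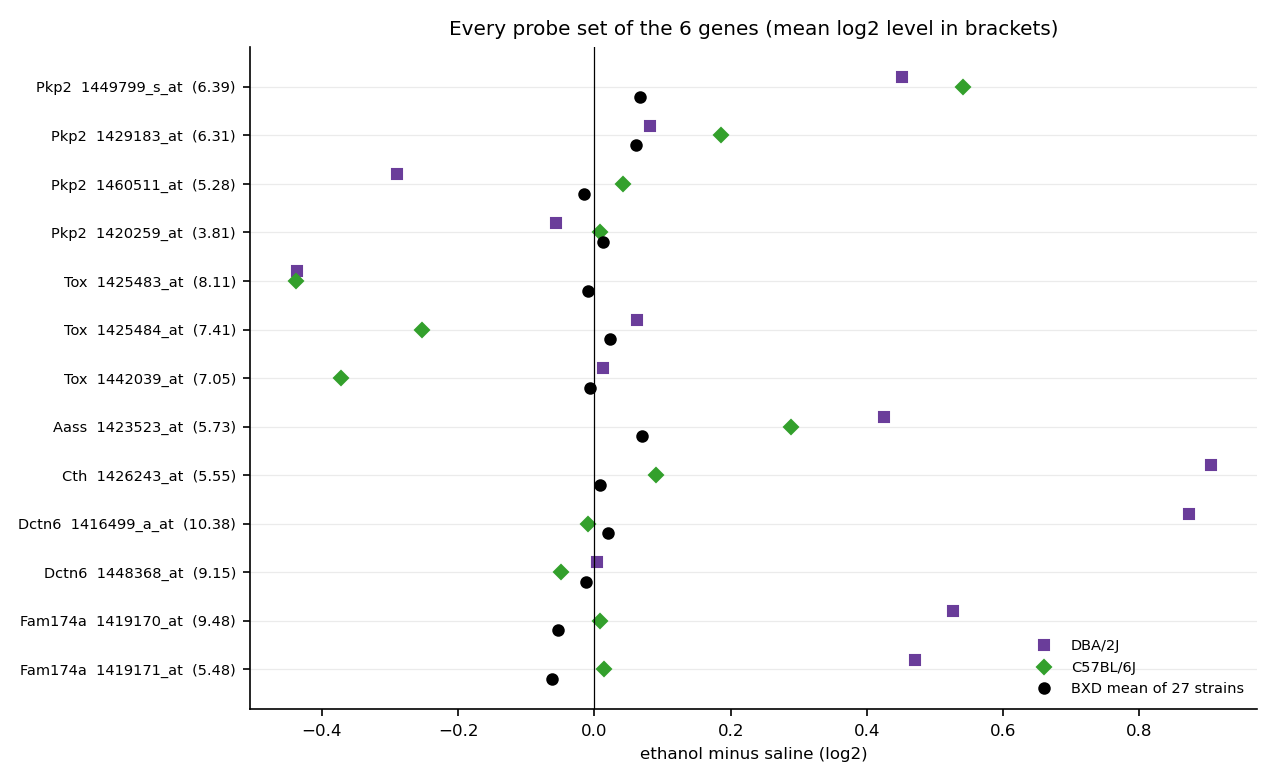
Ethanol minus saline (log2, horizontal axis) for each of the 13 probe sets, labelled with gene, probe set and mean log2 level, with DBA/2J as squares, C57BL/6J as diamonds and the BXD mean as circles. The Dctn6 pair splits in DBA/2J (0.87 and 0.00), the Fam174a pair does not (0.53 and 0.47), and all circles lie near 0.

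The level of a gene in DBA/2J relative to C57BL/6J, averaged over treatments, is another contrast than the ethanol difference that chose the genes, but it uses the same 12 arrays and the same residual spread. This level passed in limma for 16.7% of genes, 8.84% higher and 7.88% lower in DBA/2J. Of the 6 genes Tox and Pkp2 passed, while Dctn6, Fam174a and Cth, chosen on the DBA/2J arrays, are not counted. Tox, Pkp2 and Aass stood out by a p-value that used this same spread. Their adjusted p values for the level can therefore be too small and are read as a description. Tox was higher in DBA/2J, at 8.53 ± 0.25 against 7.98 ± 0.26 (SD, n = 6 arrays each), a difference of 0.56 (SE 0.06, adjusted p = 1.3e-05 in limma). At its other probe sets the Tox level difference was 0.22 and 0.34 and did not pass (adjusted p = 0.185 and 0.0532, limma over all probe sets). Pkp2 was lower in DBA/2J, at 6.12 ± 0.29 against 6.46 ± 0.30, a difference of -0.34 (SE 0.07, adjusted p = 0.00313 in limma). In a fit of all 66 arrays together the Pkp2 level did not pass (adjusted p = 0.0607, limma). At the other Pkp2 probe sets it was -0.17, 0.05 and -0.02 and did not pass (adjusted p = 0.289, 0.781 and 0.903, limma over all probe sets). Probe sequences were not used here, so a difference in RNA level between the strains and a difference in how their alleles bind the probes cannot be told apart.

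Dctn6, at -0.56 (SE 0.10), and Fam174a, at -0.44 (SE 0.06), were lower in DBA/2J as well. Both were chosen on a contrast of the DBA/2J arrays, so these values are given as a description, without a p. Dctn6 at its other probe set showed 0.02 (SE 0.06), while Fam174a at its other probe set showed -0.38 (SE 0.09). Cth, chosen on the same contrast as those 2 genes, had -0.11 (SE 0.10), also as a description. Aass had -0.16 (SE 0.06, adjusted p = 0.0632, limma).

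Split by treatment, the strain differences share arrays with the contrast that chose the genes and are given without a test. Tox differed by 0.56 among ethanol arrays and by 0.56 among saline arrays. Pkp2 differed by -0.39 among ethanol arrays and by -0.30 among saline arrays. For Dctn6 the values were -0.12 among ethanol arrays and -1.01 among saline arrays, and for Fam174a -0.18 and -0.70. Cth changed sign, with 0.29 among ethanol arrays and -0.52 among saline arrays. The gap between the ethanol and saline values of a gene is the same quantity as the excess of its DBA/2J over its C57BL/6J ethanol difference, given above, and adds nothing to it.

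The oligodendrocyte markers were lower in DBA/2J as well, 7 of 7 past the threshold with a median of -0.47. Their mean level per array ran from 8.27 to 8.40 in ethanol DBA/2J and 8.02 to 8.40 in saline DBA/2J, against 8.59 to 8.83 in ethanol C57BL/6J and 8.85 to 8.96 in saline C57BL/6J. Their part in the level differences of the 6 genes was not tested.

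Levels also differed among BXD strains. With treatment in the model, strain passed for 20.4% of genes and for 3 of the 6. Cth had the highest intraclass correlation between a strain's ethanol and saline array, 0.710 (adjusted p = 1.1e-05, limma's moderated F), followed by Tox with 0.558 (adjusted p = 0.00447) and Pkp2 with 0.448 (adjusted p = 0.00714). The median over all genes was 0.184. Dctn6 (0.287, adjusted p = 0.0872), Aass (0.238, adjusted p = 0.149) and Fam174a (0.214, adjusted p = 0.168) did not pass. At the other probe sets the strain effect did not pass for Pkp2 (intraclass correlations of 0.111 and 0.123 at those past the filter). Nor did it for Tox (0.41 and 0.32, adjusted p = 0.0556 and 0.139, limma over all probe sets). Adjusted in that way, the chosen Tox probe set had p = 0.00859 (limma). The other probe sets of Dctn6 and Fam174a had intraclass correlations of -0.092 and 0.311 and did not pass either.

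Strain means of Pkp2 spanned 2.72-fold, from 5.55 in BXD19 to 7.0 in BXD34. Those of Cth spanned 2.15-fold, from 5.01 in BXD38 to 6.11 in BXD34, and 16 strains lay above both progenitor means. Tox strain means ran from 7.87 in BXD08 to 8.39 in BXD19. Of the 27 strains none lay above the DBA/2J mean of Tox, 18 lay between the progenitors and 9 lay below C57BL/6J. For Fam174a 22 strains lay between the progenitors, and none below DBA/2J. Between strains the levels of Pkp2 and Aass had a correlation of 0.60, those of Aass and Cth 0.56 and those of Pkp2 and Cth 0.52, given as descriptions over 27 strain means that share arrays.

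**Figure D4:**
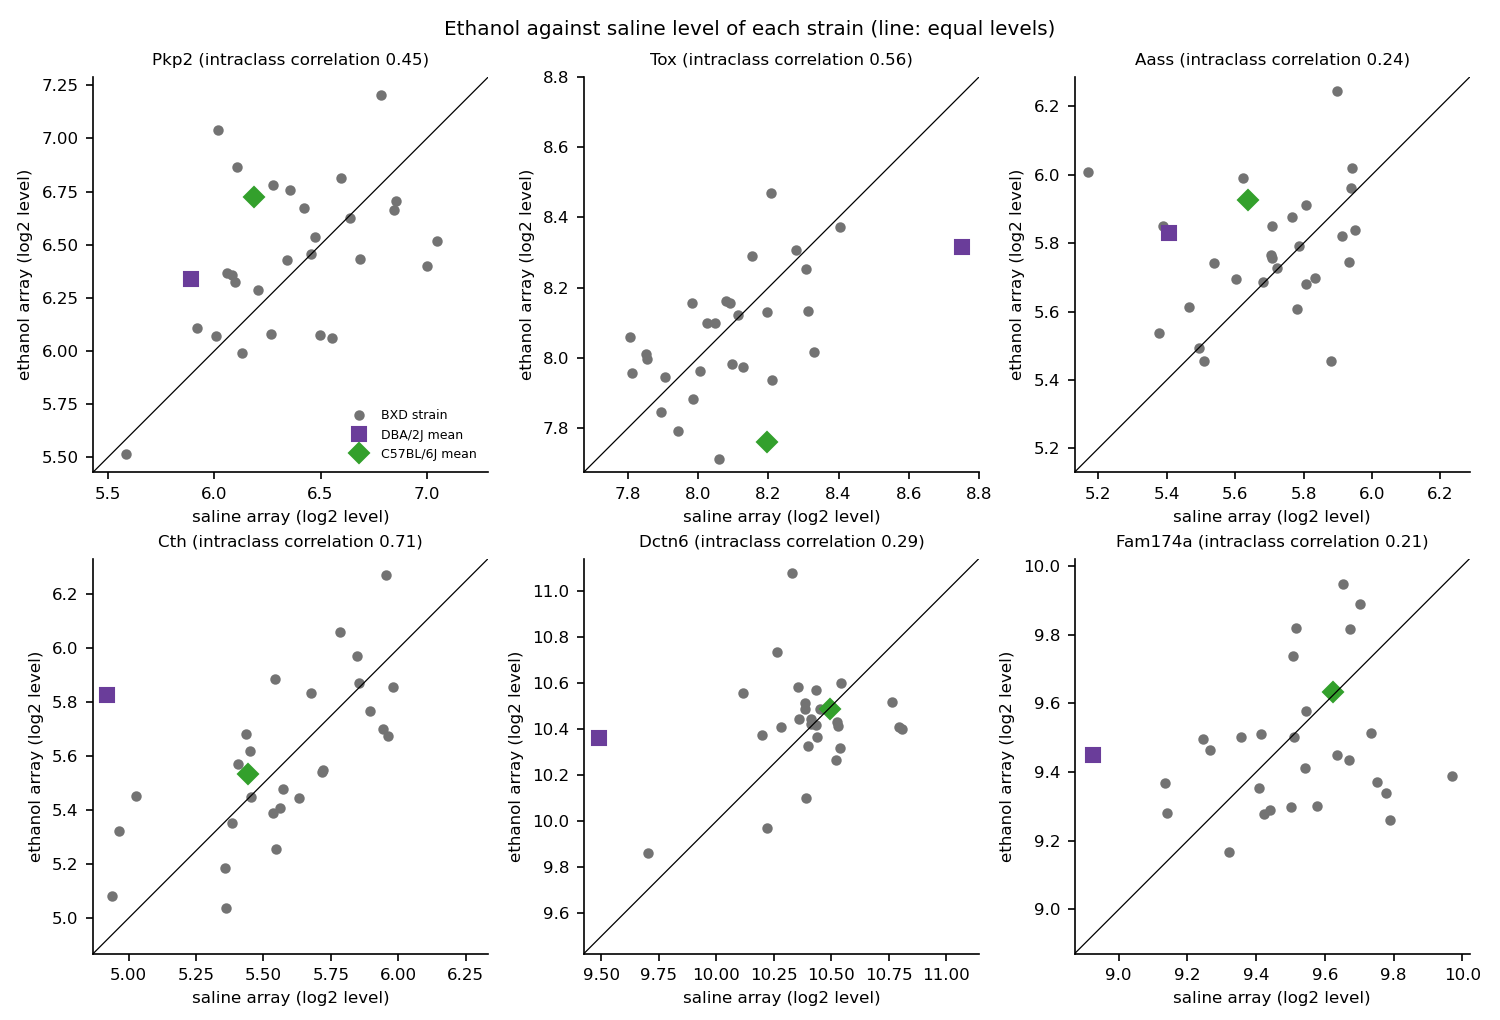
Log2 level on the ethanol array (vertical axis) against that on the saline array (horizontal axis) for each BXD strain, with the DBA/2J mean as a square, the C57BL/6J mean as a diamond and a line of equal levels. Cth, Tox and Pkp2 have the highest intraclass correlations, 0.71, 0.56 and 0.45, although the Pkp2 strains lie widely about the line. The DBA/2J square lies outside the cloud for Tox, Cth, Dctn6 and Fam174a.

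Of the 15 pairs of members, 2 had strain differences whose correlation passed after adjustment over the pairs, while strong correlations were common among all genes. Pkp2 and Dctn6 had r = 0.634 (permutation p = 4.6e-04, adjusted p = 0.0069) and rho = 0.613 (adjusted p = 0.0124). Without the 2 strains farthest from the median of Pkp2, r was 0.617. Of all 87060610 gene pairs 2.49% were at least as strongly correlated in either direction, as were 4.93% of genes with Dctn6. Aass and Dctn6 had r = 0.572 (permutation adjusted p = 0.0193), but rho was 0.384 (adjusted p = 0.122), and r was 0.534 without the 2 strains farthest from the median of Aass. That strength was reached by 4.76% of all gene pairs and by 8.47% of genes with Dctn6. BXD14, BXD20 and BXD28 were high in both Aass and Dctn6. The other 13 pairs did not pass (adjusted p of 0.17 or above for r). No gene of the 6 followed the strain response of Npas4 (adjusted p of 0.45 or above, permutation). The genes of a pair share both arrays of each strain.

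The strain differences of the 6 genes were also set against measures of the arrays. The difference in array SD within a strain had r = 0.492 with Aass and 0.489 with Cth (adjusted p = 0.0303 for each, permutation, 6 relations). Of all 13196 genes, 20.7% and 21.2% correlated with array SD at least as strongly as Aass and Cth in either direction. For rho, 0.389 and 0.504, the adjusted p was 0.104 for Aass and 0.0471 for Cth. Without the 2 farthest strains r was 0.396 for Aass and 0.375 for Cth. The first principal component of all 13196 strain differences, added after the data had been seen, held 22.4% of their variance. It is built from these same differences, those of the 6 genes included, so correlations with it are descriptions without a p. Fam174a had r = 0.803 and rho = 0.85 with it, and r was 0.849 without the 2 farthest strains. In all 661 genes (5.01%), Fam174a included, correlated with it at least as strongly in either direction. Pkp2 had r = -0.506 and rho = -0.455, with r at -0.326 without the 2 farthest strains. The share of genes as strong as Pkp2 was not counted. The other 4 genes had r from -0.303 to 0.399.

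In the progenitors the scores on that component did not separate the DBA/2J treatments. They were 7.86, 0.348 and 5.92 after ethanol, against 3.09, 2.08 and 10.4 after saline, and overlapped. The part of this shared movement in the scatter of Fam174a among strains was not tested.

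**Figure D5:**
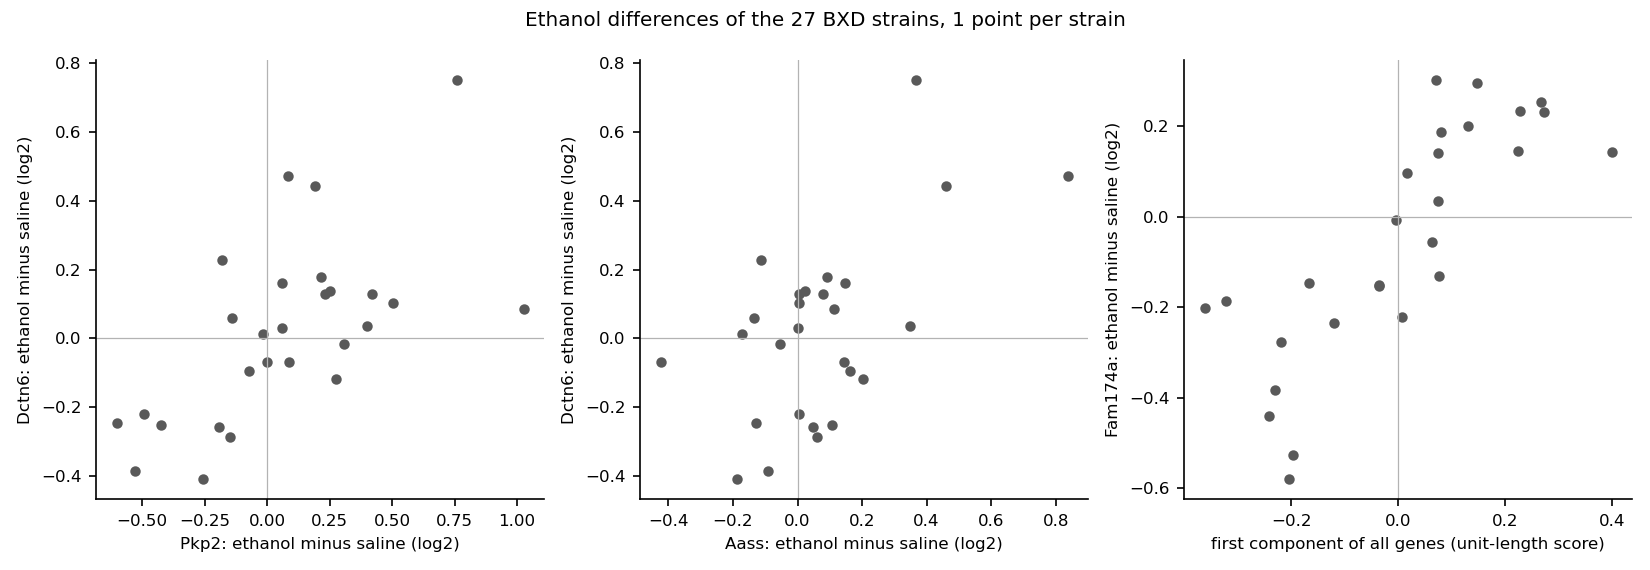
Ethanol minus saline (log2) per BXD strain for Dctn6 against Pkp2, Dctn6 against Aass, and Fam174a against the score of each strain on the first component of all genes. The correlations are 0.634, 0.572 and 0.803, and the middle panel shows 3 strains high in both genes.

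The genes most alike to each member over the 27 strain differences were named by their Pearson correlation alone. For Pkp2 these were Slc2a1, the glucose transporter of brain capillaries (0.869), Usp16 (0.735) and Pkia (0.735), and the most opposed was Axl (-0.728). For Tox they were Psmd2 (0.751), Sars (0.750) and Kbtbd2 (0.699), with Ntng2 most opposed (-0.632). For Aass they were Zfp948 (0.807), Cfap300 (0.804) and Fpgt (0.788), with Pitx1 most opposed (-0.734). For Cth they were Mrpl28 (0.709), Rnf214 (0.707) and Capn2 (0.699), with Tnfrsf1b most opposed (-0.684). Dctn6 and Fam174a had closer company. Dctn6 stood with Fbxo22 (0.934), Cryz (0.921) and the proton pump subunit Atp6v1g1 (0.914), against Septin9 (-0.841). Fam174a stood with Gltp (0.923), the G protein subunit Gnai2 (0.896) and Lysmd2 (0.883), against Camsap2 (-0.922). The highest of 13195 correlations is chosen here, and the genes of a pair share arrays, so no p is given.

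Relatives and pathway partners of the 6 genes were measured beside them, in lists chosen with earlier results of these data known. None of the 11 desmosome and plakophilin genes, 12 Tox family genes and cofactors, 18 lysine degradation genes, 25 methionine cycle and transsulfuration genes, 24 dynactin and dynein genes or 3 Fam174 genes passed in the BXD ethanol test. Each of these lists includes its own member of the 6. Only 1 of 13196 genes (0.00758%) passed that test, so nothing is read from the counts. The list medians lay between -0.05 and 0.00, beside -0.01 for all genes. Of the 32 measured targets of ATF4, a factor of the amino acid response and a list that holds Cth, none passed, with a median of -0.02. Of 30 immediate early genes 1 passed, Npas4, with a list median of 0.07.

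In the plakophilin family, Pkp1, Pkp3 and Pkp4 had BXD differences of -0.03, -0.05 and 0.02, and Jup, which also joins desmosomes, had -0.04. Arvcf, a catenin of the same list, had -0.06. In the progenitors the differences were 0.12 for Pkp1, -0.21 for Pkp3 and 0.03 for Pkp4 in DBA/2J. In C57BL/6J they were 0.08, 0.04 and -0.05. Tox2, Tox3 and Tox4 had BXD differences of -0.03, 0.06 and 0.01. Nr4a1, a nuclear receptor induced by activity, had the smallest p of the Tox list (0.14, SE 0.06, adjusted p = 0.934 in limma) and was higher in 19 of 27 strains. Nfatc2 had -0.04.

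Aldh7a1, the enzyme next after Aass in lysine breakdown, had -0.04 in the BXD panel, and its level was lower in DBA/2J by -0.81 (SE 0.07, adjusted p = 3.1e-07 in limma). Slc7a2, a carrier of cationic amino acids, had -0.05. Cbs, which supplies Cth with cystathionine, had -0.01. The smallest p values of the transsulfuration list belonged to Csad (-0.07, adjusted p = 0.934 in limma) and Chac1 (-0.06, adjusted p = 0.934), followed by Mat2b (-0.05). In the dynein list the smallest p values belonged to Dynlrb2 (-0.06), Bicd2 (-0.05) and Capzb (-0.03). The dynactin subunits Dctn1 to Dctn5 had BXD differences between -0.04 and 0.04. In DBA/2J their ethanol differences lay between -0.12 and 0.04, beside 0.87 for Dctn6. Elsewhere in that list, DBA/2J differences reached 0.34 for the dynein intermediate chain Dync1i1, 0.31 for Nde1 and 0.23 for Pafah1b1, against -0.06, -0.18 and 0.06 in C57BL/6J. In the transsulfuration list Chac2, which breaks down glutathione, had 0.63 in DBA/2J and 0.07 in C57BL/6J. These 4 genes were chosen after their values were seen. None passed in limma, where 0 of 13196 genes did in DBA/2J and 1 in C57BL/6J, so nothing is read from that. Fam174b and Fam174c had -0.05 and -0.03 in the BXD panel, and -0.06 and 0.03 in DBA/2J, beside 0.53 for Fam174a.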

How the data were processed

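The deposited table holds log2 expression levels of 45037 probe sets on 66 Affymetrix arrays, which, per the submitters' processing notes, came from the authors' use of affy and RMA (versions not given in the sources used). RMA corrects background, equalises the distribution of values between arrays and summarises probes, so levels are relative, and the number of arrays limits the precision. Probe sets were named from the platform annotation, updated through RefSeq (34945 with 1 symbol). Those with a mean below the 40th percentile (5.10) were removed and the brightest per gene kept, which left 13196 genes. Differences were fitted with limma 3.58.1 (R 4.3.3, two-sided, Benjamini-Hochberg over all genes, threshold 0.05): ethanol over 54 BXD arrays with strain as a block, strain level over the 12 progenitor arrays, and a moderated F for BXD strain. Permutations (100000) used numpy 2.4.6. The P-values measure spread between pools and strains. The fits were tested on simulated data. Members and lists were chosen with earlier results of these data known. Named genes were the members, their close relatives, the 3 smallest p of each list of a member's family or pathway, the most correlated genes, Gm10421 as the gene just outside the ranks, and Npas4, Fos and Egr2 for scale; others are marked as chosen after their values were seen. Alternatives covered filters, probe sets, scaling, weights, blocks and leaving out arrays or strains. Pairing by strain comes from the labels.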

Additional observations from a re-analysis of the deposited data

How the results depend on the processing

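None of the 6 genes passed in the BXD panel under any alternative (lowest adjusted p 0.753, for Aass). The alternatives included a fit without the strain block. Its means equal those of the paired fit by design (0.07 for Aass), since each strain has 1 array of each treatment. The count of genes passing was 2 with all probe sets, with repeated quantile normalization, with array weights or with all 66 arrays, 4 with array SD as a covariate, and 1 to 4 with each strain left out (4 without BXD21, 3 without BXD32), against 1. The estimate kept its sign for Pkp2, Aass and Fam174a and changed it in 4 alternatives for Tox, 7 for Cth and 2 for Dctn6, all near 0. For Tox and Cth these include the Wilcoxon signed-rank test, where the value is the median strain difference (0.0081 and -0.031), not the mean. Leaving out 1 strain moved some means by over 1.5 times: Pkp2 was 0.03 without BXD09 and 0.04 without BXD28, Aass was 0.04 without BXD20, and Fam174a was -0.03 without BXD18 or BXD36. Without BXD27 the Aass mean was 0.09 and its 95% interval, 0.01 to 0.17, lay above 0 (adjusted p = 0.931, limma). With the filter at the 60th percentile Aass and Cth were not tested.

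For DBA/2J minus C57BL/6J level, the count was 3844 with all probe sets, 1365 with saline arrays and 954 with ethanol arrays, against 2206. Aass passed after repeated quantile normalization (-0.18, adjusted p = 0.0492, limma). Pkp2 did not pass with all 66 arrays (-0.34). Its value was -0.30 with saline arrays and -0.39 with ethanol arrays, given without a test. Cth was -0.52 with saline arrays, and Dctn6 was -0.12 and Fam174a -0.18 with ethanol arrays, given without a test. The fits on 1 treatment share arrays with the contrast that chose the genes. The cause was not tested.

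The BXD strain effect was weaker at other probe sets of Pkp2 (0.111, 0.123 and, reversed, -8.7e-04) and Tox (0.410 and 0.318). The progenitor ethanol difference of Pkp2 at other probe sets was 0.081, -0.289 and -0.057 in DBA/2J, 0.185, 0.042 and 0.0081 in C57BL/6J, and 0.133, -0.124 and -0.024 over both. Tox there had 0.063 and 0.012 in DBA/2J, -0.254 in C57BL/6J, and -0.096 and -0.180 over both. Dctn6 had 0.0035 in DBA/2J and -0.023 over both. The Cth difference in C57BL/6J was -0.14 from medians. Leaving out each progenitor array kept the DBA/2J difference between 0.82 and 1.00 for Cth, 0.74 and 1.04 for Dctn6 and 0.48 and 0.59 for Fam174a. Signal over background was not known here, so the dim Aass and Cth values have no stated floor.

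Replicate numbers of the progenitor labels were not used as pairs. Same-numbered ethanol and saline arrays had correlations of 0.26, 0.12 and 0.06 in DBA/2J and 0.08, -0.13 and -0.23 in C57BL/6J. Different-numbered arrays had correlations from -0.305 to 0.164 in DBA/2J and from -0.232 to 0.333 in C57BL/6J. So few arrays cannot decide whether the numbers pair them, above all in DBA/2J, where the same-numbered values were all positive. With the replicate block, 1914 genes passed for the level. The Tox value stays at 0.56 in that fit by design, since every group holds each replicate number.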

Other observations

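Over the 27 strain means of level, the genes most correlated with each member were other than those of the differences above. Pkp2 stood with Mtmr12 (0.838), Fam120b (0.787) and Gpt2 (0.772). Tox stood with Plaur (0.647), Ercc8 (0.637) and Entr1 (0.614), the weakest of the 6. Aass stood with Zfhx4 (0.738), Ccdc43 (0.709) and the noncoding gene Ftx (0.704). Cth stood with Rnpc3 (0.8), Zik1 (0.8) and Taf9b (0.785), Dctn6 with Armcx3 (0.805), Snrnp40 (0.8) and Mapk10 (0.79), and Fam174a with Tatdn2 (0.787), Dbi (0.784) and Ubald1 (0.764). These are the highest of all genes, chosen after their values were seen, and are given as descriptions.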
